A study of Mus musculus with 12 samples.

Results

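The folding machinery of the endoplasmic reticulum (ER) and the unfolded protein response (UPR) were followed in 2 tissues of the mouse intervertebral disc, the annulus fibrosus (AF) and the nucleus pulposus (NP). The set held 37 genes named by symbol, and the array's gene table gave a probe set for 35 of them, out of 22206 transcript clusters tested and 19505 named genes. Manf and Pdia4 were not analysed here. Ddit3 had 2 clusters, and the one with the higher mean over the 12 arrays was used.

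RNA came from lumbar discs, L1 to S1, of 12-month-old C57BL/6 mice, and each of 4 groups held 3 arrays. The AF is the fibrous outer ring of the disc and the NP its proteoglycan-rich core. Wild-type (WT) AF and NP stood beside AF and NP of TonEBP haploinsufficient mice (TonEBP +/-), which carry 1 functional copy of Nfat5, the gene of the osmoregulatory transcription factor TonEBP,. Each sample was the disc tissue of 1 animal, pooled over its lumbar levels, and the labels do not say which AF and NP samples shared an animal.

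The ER is where secreted and membrane proteins enter the secretory route, and cells that lay down matrix, as disc cells do, pass large amounts of protein through it. Misfolded protein there is sensed by 3 membrane proteins. IRE1 splices the mRNA of the transcription factor XBP1, PERK phosphorylates eIF2alpha and so favours translation of ATF4, and ATF6 moves to the Golgi, where it is cleaved to an active factor. Their targets include the ER chaperones, the enzymes that form disulfide bonds, the translocation channel and the degradation route known as ERAD. The arrays measured total mRNA, so splicing of Xbp1, phosphorylation and cleavage were not measured.

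The promoters of some of the genes hold a common element. The ER stress response element (ERSE) reads CCAAT, 9 bases of any kind, then CCACG, and is known to bind NF-Y at its first letters and ATF6 or XBP1 at its last. Both strands were searched in RefSeq promoter windows of GRCm38.p6, from 250 bases before to 50 bases after each gene's start, which were found for 30 of the 37 genes. A match was present in 9 of these 30 windows (30.0%) and in 37 of 27025 windows of all genes (0.137%). The set was named for folding and the UPR, whose factors this element is known to bind. The higher share therefore describes the choice of genes and is no independent result. These 9 genes are folding and degradation factors, and their elements are shown because ERSE was the most frequent in the set of the 4 motifs searched. Each is printed 5' to 3' on the strand named, with the fixed letters of the motif in capitals and its 9-base spacer in lower case.

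Calr chr8:84847075-84847093 (+): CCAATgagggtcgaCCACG
Canx chr11:50325800-50325818 (-): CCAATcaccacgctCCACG
Creld2 chr15:88819520-88819538 (-): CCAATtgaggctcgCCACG
Derl3 chr10:75893242-75893260 (-): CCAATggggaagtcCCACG
Ero1b chr13:12565682-12565700 (-): CCAATgaggcgggaCCACG
Hsp90b1 distal chr10:86705638-86705656 (-): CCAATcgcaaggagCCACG
Hsp90b1 proximal chr10:86705533-86705551 (+): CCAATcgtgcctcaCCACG
Hspa5 chr2:34772025-34772043 (+): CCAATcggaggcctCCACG
Pdia6 chr12:17266491-17266509 (+): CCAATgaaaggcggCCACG
Syvn1 chr19:6046532-6046550 (+): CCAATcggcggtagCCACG

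The 10 elements lay between 26 and 212 bases before the start. The 5 fixed letters at each end were set by the search, while the spacers differed from gene to gene. Herpud1, an ERAD scaffold, held the second form of the element, ERSE-II, which reads ATTGG, 1 base of any kind, then CCACG. Its ATTGG is the reverse complement of CCAAT and its CCACG is shared with ERSE. It was found in 1 of 30 windows of the set and 12 of 27025 windows (0.0444%).

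Herpud1 chr8:94386377-94386387 (+): ATTGGgCCACG

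Neither the UPR element TGACGTGG (193 of 27025 windows, 0.714%) nor the amino acid response element TGATGNAAT (293 windows, 1.08%) had a match in the 30 windows. The search counted these motifs as written and no other forms of them. The Hspa5 sequence below, for example, holds TGACGTGA, which differs from TGACGTGG in its last letter. A match describes the letters in these windows and shows no binding. The 250 bases before the start are given for 3 chaperone genes, Hspa5, the most studied UPR target, Hsp90b1, whose window held a match on each strand, and Calr, the chaperone gene with a called genotype change in AF. They are printed along the strand of the gene, with the ERSE matches in capitals, so a match on the other strand appears as its reverse complement.

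Hspa5 chr2:34771840-34772089 (+): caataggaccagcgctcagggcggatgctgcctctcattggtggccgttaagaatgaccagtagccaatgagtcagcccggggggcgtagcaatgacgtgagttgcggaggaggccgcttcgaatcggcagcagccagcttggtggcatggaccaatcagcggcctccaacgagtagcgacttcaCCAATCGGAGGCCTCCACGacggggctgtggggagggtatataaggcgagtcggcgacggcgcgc
Hsp90b1 chr10:86705445-86705694 (-): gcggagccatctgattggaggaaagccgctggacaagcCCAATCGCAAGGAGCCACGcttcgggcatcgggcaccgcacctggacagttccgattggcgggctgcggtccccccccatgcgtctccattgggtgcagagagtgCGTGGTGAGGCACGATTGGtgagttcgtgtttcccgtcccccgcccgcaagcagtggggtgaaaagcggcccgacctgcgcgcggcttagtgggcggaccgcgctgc
Calr chr8:84846932-84847181 (-): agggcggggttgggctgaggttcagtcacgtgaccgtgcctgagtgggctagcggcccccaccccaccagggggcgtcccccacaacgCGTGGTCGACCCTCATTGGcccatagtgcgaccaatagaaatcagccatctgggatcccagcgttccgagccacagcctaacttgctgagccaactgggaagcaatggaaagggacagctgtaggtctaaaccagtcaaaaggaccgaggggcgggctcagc

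The values are log2 signals from Clariom S arrays as deposited. The 95th percentile of the 23 background probe sets, computed array by array, was 7.11 to 7.98 log2 and served as the limit above which a gene counted as above background. Of the 35 genes, 26 were above background on all 12 arrays, 7 on some and 2 on none. Array medians were 7.43 to 7.64 in AF and lower in NP, 6.82 to 6.87. The third AF array of TonEBP +/- had an interquartile range of 3.11 log2, against 2.36 to 2.66 on the other AF arrays, and was the highest of the 6 AF arrays for 27 of the 35 genes. Nfat5 itself ranged from 7.70 to 9.93 in AF of WT and 8.74 to 8.94 in AF of TonEBP +/-, and from 8.34 to 9.12 and 9.06 to 9.62 in NP, so the lowest values belonged to WT in both tissues. The position of its probes relative to the disrupted sequence was not determined, and these signals therefore do not check the genotype labels.

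Of 10 NP and notochord markers 6 were higher on all NP arrays than on all AF arrays, among them Krt8, at 16.9 to 17.3 in NP and 7.04 to 10.3 in AF. Noto was lower on all NP arrays, and Foxa1, Foxa2 and Car12 were below background on every array. Of 10 AF and tendon markers 4 were higher on all AF arrays, 2 were higher on all NP arrays and 3, Scx, Mkx and Tnmd, were below background on every array. Col1a1, a chain of type I collagen, lay between 10.9 and 14.9 in AF of WT, between 17.2 and 17.7 in AF of TonEBP +/- and between 7.87 and 8.78 in NP, while Fmod, a small proteoglycan of tendon, lay between 12.0 and 14.8 in AF and between 17.8 and 18.7 in NP. The 4 markers higher on all AF arrays were Col1a1, Col1a2, Thbs2 and Thbs4, and the AF label was not tested further. AF arrays also carried markers of other cells. The mean of 12 neutrophil and myeloid precursor markers lay between 15.6 and 17.2 in AF, and in NP between 11.2 and 12.7 in WT and between 8.84 and 10.5 in TonEBP +/-. The mean of 5 erythroid markers lay between 12.4 and 13.4 in AF, and in NP between 8.74 and 10.3 in WT and between 7.26 and 7.50 in TonEBP +/-.

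**Figure D1:**
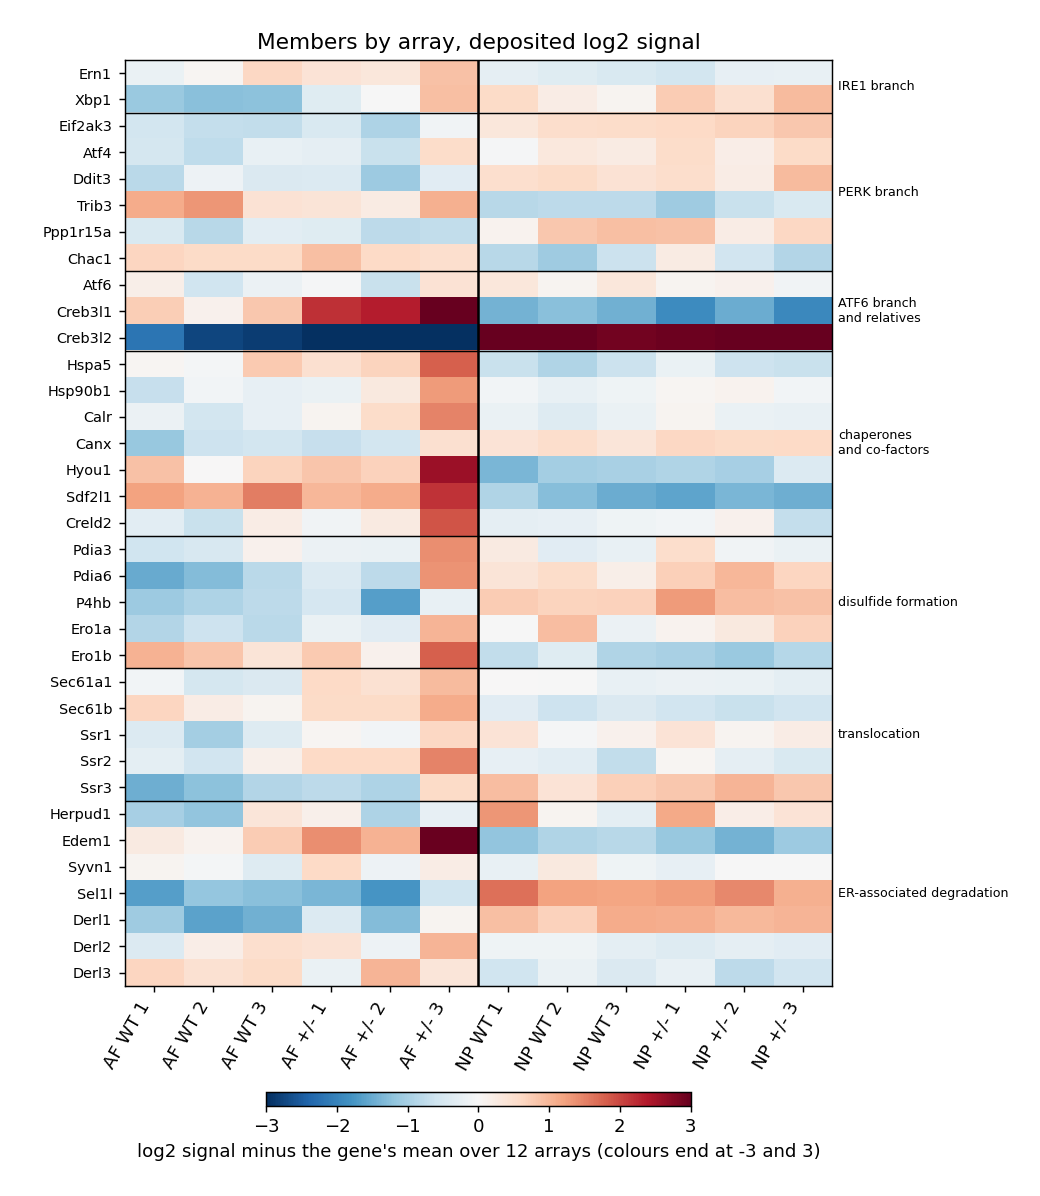
Log2 signal of each of the 35 genes on each of the 12 arrays, as the difference from the gene's own mean over the 12 arrays, with genes in rows by role and arrays in columns (AF to the left of the vertical line, NP to the right, +/- for TonEBP +/-). Colours end at -3 and 3. AF array 3 of TonEBP +/- is the darkest red AF column, Creb3l2 is low on all AF arrays and high on all NP arrays, and Creb3l1 is high on the 3 AF arrays of TonEBP +/-.

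The first question was whether loss of 1 copy of Nfat5 changed the genes in AF. Of the 35, 6 rose and 1 fell: the transcription factors Xbp1 and Creb3l1, the chaperone gene Calr, the channel subunit gene Sec61a1, the signal sequence receptor gene Ssr2 and the ERAD gene Edem1 rose, and Creb3l2 fell (limma, Benjamini-Hochberg adjusted p under 0.05 over all clusters). Among all 22206 clusters 6.07% were called, 2.76% higher and 3.31% lower. The change was positive for 30 of the 35 genes, with a median of 0.43 log2, against a median of -0.04 and 46.4% positive over all clusters. Over the 28 genes whose mean lay above background the median was 0.58, against 0.17 over all such clusters. Set to their background bound, where 1 genotype was at background, 32 genes had a median of 0.47. In 9 genes all 3 TonEBP +/- arrays lay above all 3 WT arrays and in 1 gene below, against 10.0% and 12.3% of all clusters.

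Xbp1, the factor of the IRE1 branch, had log2 signals of 12.05, 11.91 and 11.96 in AF of WT and of 12.82, 13.16 and 14.08 in AF of TonEBP +/-. All 3 TonEBP +/- arrays stood above the WT arrays, whose SD was 0.0716 log2 (n = 3) against 0.654 in TonEBP +/-. The rise was 2.60-fold (log2 1.38, SE 0.287, limma adjusted p = 0.0202). Ern1, which encodes IRE1 itself, overlapped between genotypes (8.61 to 9.43 in WT, 9.15 to 9.70 in TonEBP +/-; log2 0.39, SE 0.248, limma adjusted p = 0.374).

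None of the 6 genes of the PERK branch was called in AF, and their median change was -0.01 log2. Eif2ak3, which encodes PERK, changed by 0.17 (SE 0.231) and Atf4, the factor it favours, by 0.37 (SE 0.286), the highest change of the branch. Ddit3, which encodes the pro-apoptotic factor CHOP, had signals of 9.19, 9.84 and 9.56 in WT and 9.58, 8.91 and 9.66 in TonEBP +/-. Its arrays were interleaved, and the change was -0.15 (SE 0.265, 95% interval -0.71 to 0.41). Trib3, a pseudokinase induced by ATF4 and CHOP, changed by -0.38 (SE 0.279), the lowest of the branch, and was above background on 2 of 3 WT and 1 of 3 TonEBP +/- arrays. Ppp1r15a, the phosphatase subunit GADD34, and Chac1, a glutathione-degrading enzyme, were at background on all 6 AF arrays.

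The membrane-tethered factors moved in different directions. Atf6 changed by 0.10 log2 (SE 0.277, limma adjusted p = 0.874). Creb3l1 encodes OASIS, a relative of ATF6 known for its role in bone-forming cells. Its signals were 7.48, 6.86 and 7.54 in AF of WT, all at background, and 8.91, 9.10 and 9.94 in AF of TonEBP +/-, all above it. It was at least 2.80-fold higher in TonEBP +/- when WT was set to its background level (limma adjusted p = 0.00451). Creb3l2 encodes BBF2H7, a relative known for its role in the secretion of cartilage matrix. Its signals were 11.40, 10.85 and 10.75 in WT and 10.24, 9.65 and 10.34 in TonEBP +/-. No array of TonEBP +/- reached the lowest WT array, and it fell 1.90-fold (log2 -0.93, SE 0.245, limma adjusted p = 0.0381). With array medians subtracted it was not called (log2 -0.84, limma adjusted p = 0.0666).

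All 7 chaperone and co-factor genes had a positive change in AF, with a median of 0.79 log2, and 1 of them was called. Calr encodes calreticulin, the soluble lectin chaperone of glycoproteins. Its signals were 15.60, 15.22 and 15.52 in WT and 15.84, 16.32 and 17.25 in TonEBP +/-. No overlap was seen between the groups, array 3 of TonEBP +/- stood well above the next array and the rise was 2.04-fold (log2 1.03, SE 0.292, limma adjusted p = 0.0487). After quantile normalization it was not called (log2 0.44, limma adjusted p = 0.278). Hspa5, which encodes the central Hsp70 chaperone BiP, had 16.21, 16.08 and 16.93 in WT and 16.63, 16.81 and 17.95 in TonEBP +/-. Array 3 of WT lay above arrays 1 and 2 of TonEBP +/-, and the change of 0.73 (SE 0.321) was not called (limma adjusted p = 0.186). Hsp90b1, the ER Hsp90 paralog, changed by 0.79 (limma adjusted p = 0.131), Hyou1, a large Hsp70-like exchange factor, by 0.84 (0.21), and Canx, the membrane-bound partner of calreticulin, by 0.51 (0.297). Sdf2l1, a partner of BiP with its J-domain proteins, had the smallest change, 0.16 (SE 0.291). Creld2 was above background on 1 of 6 AF arrays, array 3 of TonEBP +/-, so no size is given for it.

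Of the 5 genes of disulfide formation none was called in AF, although their median change was 0.65 log2. Pdia6, a protein disulfide isomerase, had 9.29, 9.52 and 10.00 in WT and 10.40, 10.01 and 12.16 in TonEBP +/-. No overlap was seen, though the lowest TonEBP +/- array and the highest WT array nearly met, and the change of 1.25 (SE 0.403) had a limma adjusted p of 0.0744. Ero1a, the oxidase that recharges these enzymes, also did not overlap (10.26, 10.51 and 10.33 against 10.93, 10.80 and 12.15; log2 0.93, SE 0.348, limma adjusted p = 0.117). P4hb, both a disulfide isomerase and the beta subunit of collagen prolyl 4-hydroxylase, changed by 0.14 (SE 0.301), the smallest of the role.

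The 5 translocation genes all had a positive change in AF, with a median of 0.81 log2, and 2 were called. Sec61a1 encodes the pore of the translocation channel. Its signals were 13.57, 13.13 and 13.21 in WT and 14.25, 14.11 and 14.60 in TonEBP +/-. All 3 TonEBP +/- arrays were above the WT arrays and array 3 did not stand apart as it did elsewhere, with a rise of 2.02-fold (log2 1.02, SE 0.218, limma adjusted p = 0.0214). Ssr2, a subunit of the translocon-associated TRAP complex, had 11.97, 11.71 and 12.43 in WT and 12.87, 12.88 and 13.77 in TonEBP +/-, with no overlap. It rose 2.20-fold (log2 1.14, SE 0.285, limma adjusted p = 0.0317). Its partner Ssr1 also did not overlap (log2 0.80, SE 0.254, limma adjusted p = 0.0718), and Sec61b, a small channel subunit, had the smallest change of the role, 0.43 (SE 0.231).

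Of 7 ERAD genes 1 was called. Edem1 encodes a lectin that hands misfolded glycoproteins to the degradation route. Its signals were 9.64, 9.47 and 10.13 in WT and 10.76, 10.41 and 12.33 in TonEBP +/-. Arrays 1 and 2 of TonEBP +/- lay a little above the highest WT array and array 3 far above it, and the rise was 2.68-fold (log2 1.42, SE 0.373, limma adjusted p = 0.0372). Derl1, a rhomboid pseudoprotease of the retrotranslocation channel, changed by 0.83 (limma adjusted p = 0.104). Sel1l, the adaptor of the ubiquitin ligase encoded by Syvn1, changed by 0.11 (SE 0.283), and Herpud1 by 0.26 (SE 0.448). Derl3 was at background on all 12 arrays.

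**Figure D2:**
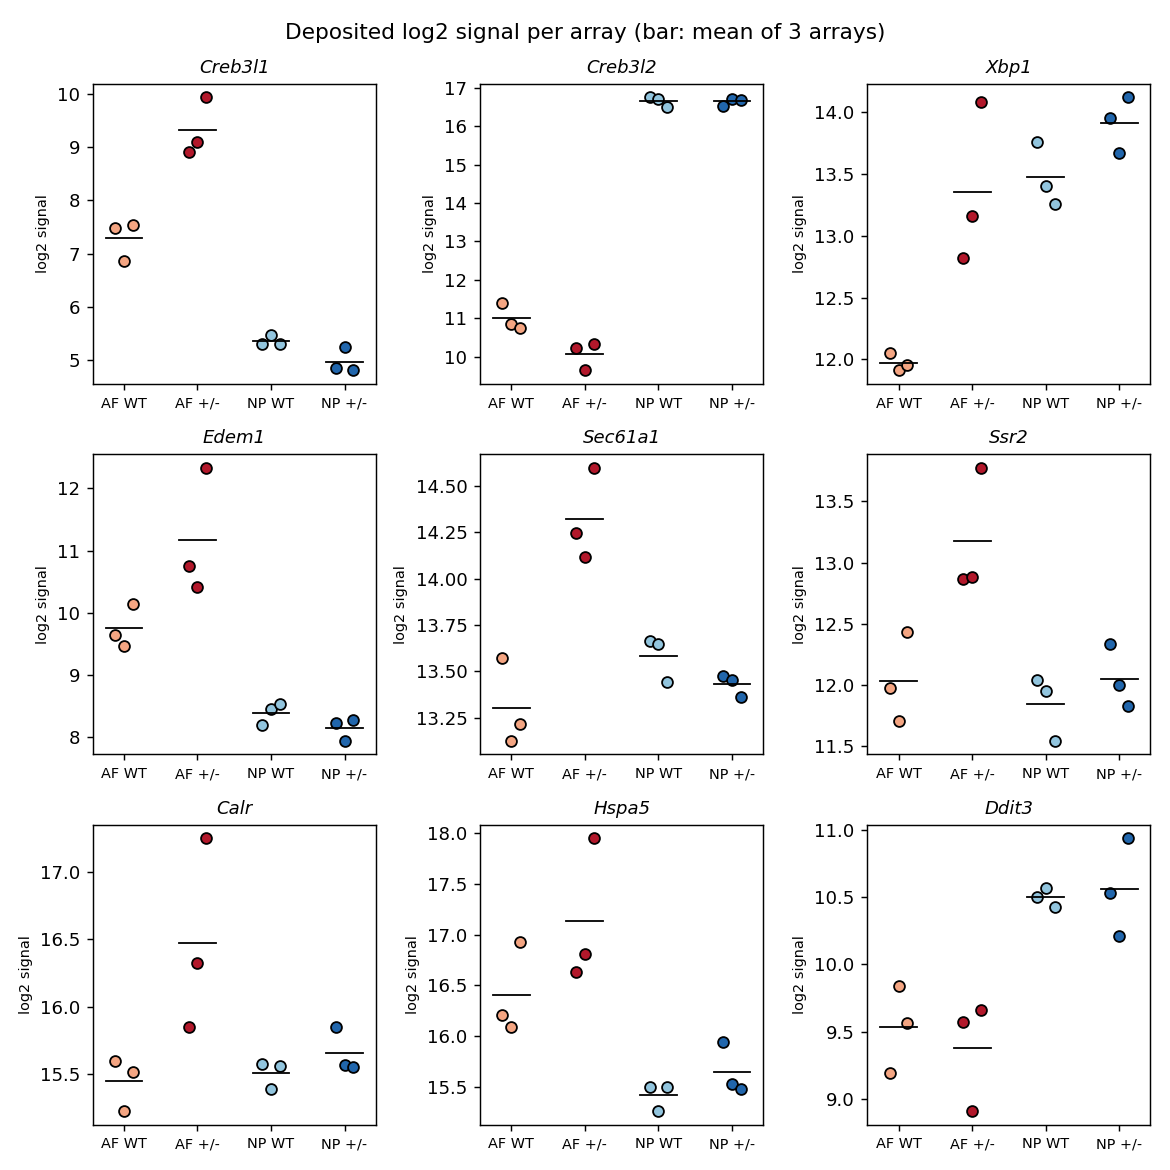
Deposited log2 signal on each array for the 7 genes called in AF and for Hspa5 and Ddit3, which were not called, with 1 point per array, a bar at the mean of 3 arrays and a separate axis range in each panel. The 3 AF arrays of TonEBP +/- lie above those of WT in 6 panels and below in that of Creb3l2. Array 3 of TonEBP +/- is the topmost AF point of Creb3l1, Xbp1, Edem1, Sec61a1, Ssr2, Calr and Hspa5.

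The AF result rested in part on that array. Without AF array 3 of TonEBP +/- the median change of the 35 genes was 0.22 log2, 24 were positive and 1 was called, Creb3l1 (limma adjusted p = 0.0146). The others then had log2 changes of 1.01 (Xbp1), 0.88 (Sec61a1), 0.84 (Ssr2), 0.84 (Edem1), 0.64 (Calr) and -1.06 (Creb3l2), with limma adjusted p from 0.0751 to 0.202. Spread also differed between the tissues: the median SD of the 35 genes was 0.322 in AF of WT, 0.618 in AF of TonEBP +/- and 0.186 and 0.193 in NP. With a separate weight for each tissue Creb3l1 was again the 1 gene called (limma adjusted p = 0.0146), and with the 6 AF arrays alone none was (limma adjusted p = 0.0961 for Creb3l1 and 0.105 for Xbp1). Across the 12 fits that each left out 1 array, Creb3l1 was called in 12, Xbp1 in 10, Sec61a1 and Ssr2 in 8 each, Edem1 in 5, and Calr and Creb3l2 in 2 each. The number called was 3, 1 and 3 without WT AF array 1, 2 or 3, 3 and 11 without AF array 1 or 2 of TonEBP +/-, 4 without NP array 1 or 3 of TonEBP +/-, and 5 or 6 without 1 of the other 4 NP arrays.

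Markers of some other cells moved with the same arrays. The mean of 7 osteoblast markers was 8.60 to 10.2 log2 in AF of WT and 11.0 to 11.7 in AF of TonEBP +/-, and all 7 were at background in NP. Neutrophil and myeloid precursor markers had means of 15.6 to 16.0 and 16.6 to 17.2. The 8 osteoclast markers, 4 of them at background on every array, had 7.25 to 8.63 and 9.17 to 10.4. The 9 macrophage markers, 2 of them at background on every array, had 7.95 to 8.24 and 8.40 to 9.45. Plasma and B cell markers, of which 4 of 9 were at background on every array, had means of 7.83 to 8.02 and 8.07 to 8.50. Among them Jchain, the joining chain of secreted antibodies, overlapped, from 11.4 to 13.0 in WT and from 12.9 to 14.5 in TonEBP +/-. Counting markers above background on any array, all TonEBP +/- arrays lay above all WT arrays for 12 of 12 neutrophil and 5 of 7 osteoblast markers. The count was 3 of 8 for osteoclast, 3 of 9 for macrophage, 1 of 9 for plasma and B cell and 1 of 8 for endothelial markers. It was 0 of 5 for erythroid markers (means 12.9 to 13.0 in WT, 12.4 to 13.4 in TonEBP +/-) and 0 of 9 for skeletal muscle. Over all clusters 10.0% lay above and 12.3% below in this way, so the counts for plasma and B cell and endothelial markers were near that share. Cartilage markers did not move together: of 10, 2 were higher and 2 lower on all AF arrays of TonEBP +/- than on all of WT. The higher ones were Col11a1 (9.45 to 10.50 in WT and 10.54 to 10.86 in TonEBP +/-) and Col11a2 (8.81 to 9.12 and 9.22 to 9.56). The lower ones were Acan, the aggrecan gene (16.4 to 16.7 in WT and 14.5 to 14.8 in TonEBP +/-), and Sox9, a cartilage transcription factor (13.7 to 15.2 and 12.1 to 13.4). The part of these cells in the AF changes was not tested, and in tissue samples more cells of a type and more RNA per cell cannot be told apart.

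Genes of the wider secretory pathway, 141 measured genes in 9 lists, gave 7 higher and 0 lower in AF, against 2.76% and 3.31% of all clusters and 6.07% in either direction. The change was positive for 121, with a median of 0.46 log2, against 46.4% positive and a median of -0.04 over all clusters. Over the clusters whose mean lay above background these were 62.2% and 0.17, a filter not applied to the 141 genes. The oligosaccharyl transferase, which attaches N-glycans to proteins entering the ER, had 4 of its 11 measured genes called, led by Ostc (2.45-fold, log2 1.29, SE 0.334), Dad1 (1.12) and Ddost (1.01), with limma adjusted p from 0.0325 to 0.0379. Sec11c, a catalytic subunit of signal peptidase, rose 2.83-fold (log2 1.50, SE 0.3, limma adjusted p = 0.0174) and Sar1a, the GTPase that starts COPII vesicle formation, 1.88-fold (log2 0.91, SE 0.221, limma adjusted p = 0.0286). All 3 TonEBP +/- arrays lay above all 3 WT arrays for each of these 5 genes. Uggt2, also called, was at background in both groups. Of 30 ATF4 targets and stress response genes 0 were called, with a median of 0.23 (smallest limma adjusted p 0.0638). Leaving out arrays, a setting added after the data were seen, gave 0 of the 141 called by limma without AF array 1 of WT or array 3 of TonEBP +/-, 1 without AF array 2 of WT or array 1 of TonEBP +/-, 42 without AF array 2 of TonEBP +/- and 4 without NP array 3 of TonEBP +/-.

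In NP the same loss of 1 Nfat5 copy gave 0 of 35 genes called and 0 with an unadjusted p under 0.05 (limma), against 0.113% of all clusters called, all of them lower. The median change was 0.07 log2, with 21 of 35 positive, against 0.01 over all clusters. The 28 genes above background in both genotypes changed by -0.24 to 0.44, and for 23 of them the 95% interval lay within 1 log2 unit of 0 on either side, so a 2-fold change fell outside it. The intervals of the 28 reached from -1.04 to 1.26.

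Hspa5 had 15.49, 15.26 and 15.50 in WT and 15.94, 15.53 and 15.47 in TonEBP +/-, and Sec61a1 had 13.67, 13.65 and 13.44 against 13.47, 13.46 and 13.36. Xbp1 had 13.76, 13.40 and 13.26 in WT and 13.95, 13.67 and 14.12 in TonEBP +/-, with the largest change among genes above background, 0.44 (SE 0.287, 95% interval -0.17 to 1.05). All 3 pairs of groups overlapped. In 5 genes, Eif2ak3, Hsp90b1, Canx, Pdia6 and P4hb, all 3 TonEBP +/- arrays lay above the WT arrays, against 5.34% of all clusters, with changes of 0.16 to 0.41 and unadjusted limma p from 0.293 to 0.579. Creb3l1, at background on all 6 arrays, was the 1 gene whose arrays lay below, against 5.93% of all clusters. Of the 141 wider pathway genes 0 were called in NP (limma, smallest adjusted p 0.303, unadjusted p under 0.05 for 2).

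**Figure D3:**
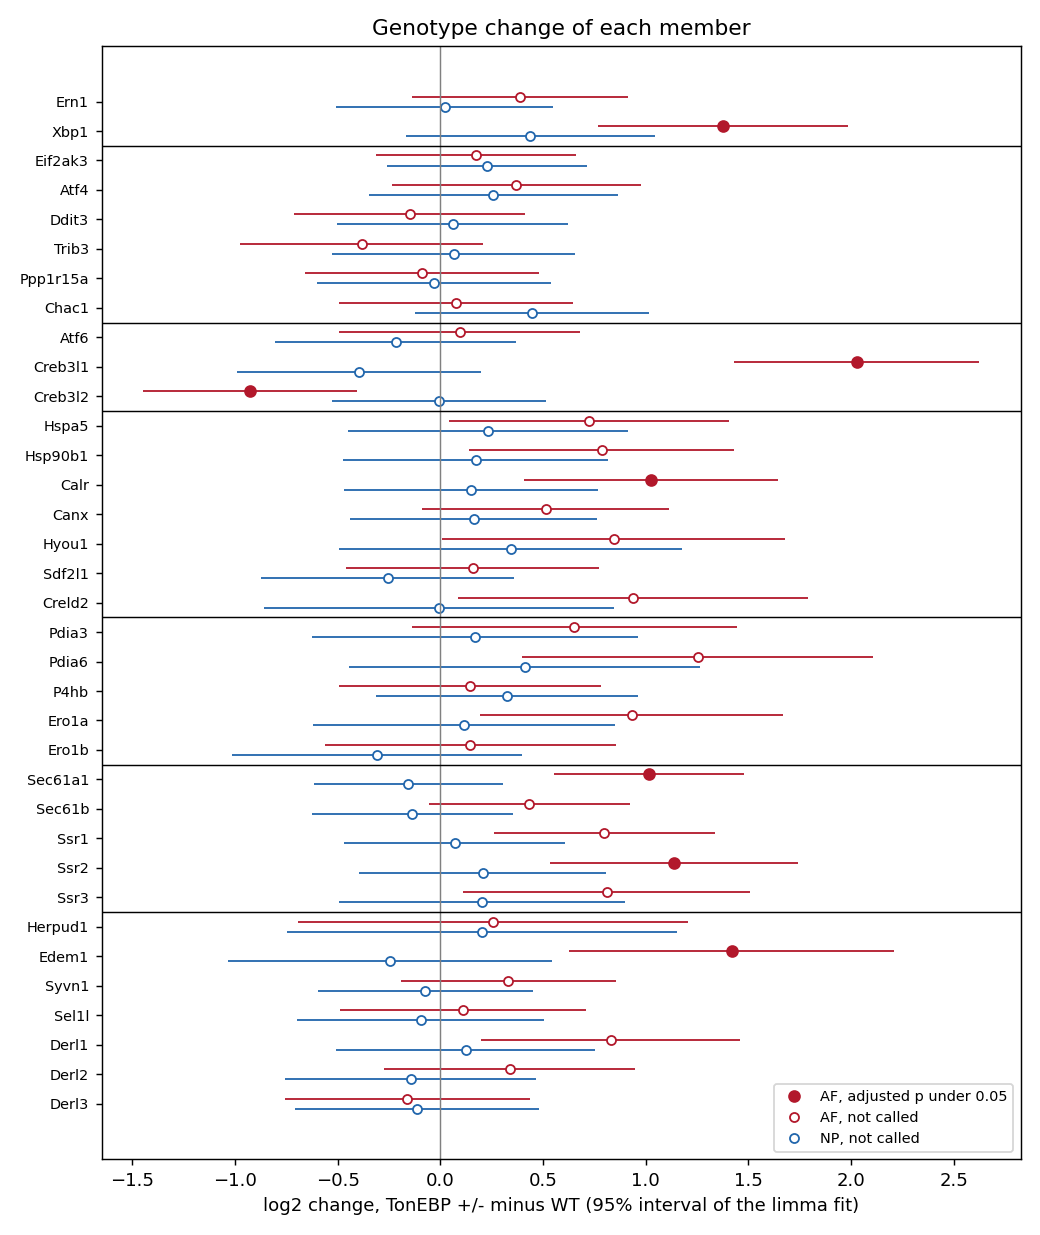
Fitted log2 change between TonEBP +/- and WT for each of the 35 genes, AF in red and NP in blue, with the 95% interval of the limma fit and horizontal lines between the roles. Filled points have an adjusted p under 0.05, and genes at background are drawn at their fitted values, which are not measured changes (in AF Ppp1r15a, Chac1 and Derl3 in both genotypes and Creb3l1 and Creld2 in WT, and in NP Trib3, Chac1, Creb3l1, Sdf2l1, Ero1b and Derl3 in both and Ppp1r15a in TonEBP +/-). The 7 filled points all belong to AF, and the NP points lie between -0.40 and 0.45.

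Whether the genotype change differed between the tissues was tested as an interaction. It was called for 1 of 35 genes, in the negative direction, against 0.887% of all clusters, 0.122% positive and 0.766% negative. This was Creb3l1, whose fitted change in NP minus that in AF was -2.42 log2 (SE 0.397, limma adjusted p = 0.0148). Its signals in NP were 5.30, 5.47 and 5.30 in WT and 4.84, 5.24 and 4.80 in TonEBP +/-, all at background. Of the 4 group means in this difference 3 were therefore at background, and the fitted value is no measure of size. Sec61a1 (-1.17, SE 0.308, limma adjusted p = 0.0901) and Edem1 (-1.67, SE 0.528, limma adjusted p = 0.15) followed without passing. The interaction was below 0 for 27 of the 35 genes, with a median of -0.48 against 0.05 over all clusters, and 7 had an unadjusted p under 0.05. Without AF array 3 of TonEBP +/- that median was -0.08. With all 12 arrays, the median over the 28 genes whose mean lay above background was -0.49, against -0.12 over all such clusters. The interaction of Creb3l1 was called in 10 of 12 fits that left out 1 array, and not without array 2 of AF of WT or array 2 of NP of WT. Without AF array 2 of TonEBP +/- 3 genes were called. Of the 141 wider pathway genes 0 had a called interaction (limma, smallest adjusted p 0.0851, unadjusted p under 0.05 for 14).

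The last comparisons set NP against AF within each genotype. Array medians and spreads differed between the tissues, so these changes are given after each array's median was subtracted, followed by the change in the values as deposited and after quantile normalization. In WT, 25 of 35 genes were called, against 65.0% of all clusters, and 21 were higher and 4 lower in NP, against 33.7% and 31.3%. All 3 NP arrays lay above all 3 AF arrays for 22 genes and below for 7, against 36.1% and 35.5% of all clusters. The split was 14 higher and 10 lower in the deposited values and 8 and 10 after quantile normalization, and in 3 genes, Hsp90b1, Calr and Sec61a1, called directions were opposite between scalings. The same direction was called under all 3 scalings for 8 genes higher and 3 lower, against 19.2% and 22.1% of all clusters. In TonEBP +/-, 22 were called (56.2% of all clusters), 16 higher and 6 lower (30.9% and 25.3%), and the arrays did not overlap for 14 above and 6 below (32.1% and 28.2%). The split was 9 and 15 in the deposited values and 7 and 15 after quantile normalization, called directions of Ssr1 were opposite, and 7 genes were higher and 6 lower under all 3 scalings (17.9% and 18.2%). The shares over all clusters include clusters at background. Among the 28 genes and 10091 clusters whose mean lay above background, 20 genes were called higher and 1 lower in WT, against 5895 and 1973 clusters. The medians there were 1.30 and 1.04 log2. In TonEBP +/- 15 and 4 of these genes were called, against 5269 and 1692 clusters, and both medians were 0.77, so the genes did not stand out from such clusters. The 2 comparisons share no array.

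Creb3l2 differed most between the tissues. Its signals in WT were 11.40, 10.85 and 10.75 in AF and 16.75, 16.71 and 16.50 in NP, and in TonEBP +/- 10.24, 9.65 and 10.34 in AF and 16.53, 16.72 and 16.69 in NP. Every NP array stood more than 5 log2 units above every AF array. The change in WT was 6.39 log2 with medians subtracted (SE 0.258), 5.66 as deposited and 4.90 after quantile normalization, or 29.9- to 84.1-fold, and in TonEBP +/- it was 7.26, 6.57 and 6.14. Creb3l1, its relative, was the reverse: it was at background on all 6 NP arrays and above background on the 3 AF arrays of TonEBP +/-, at least 2.73-fold higher there.

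Among ERAD genes, Sel1l and Derl1 were higher in NP under all 3 scalings in both genotypes. In WT, Sel1l had 9.17, 9.67 and 9.59 in AF and 12.47, 12.03 and 12.02 in NP, a change of 3.44, 2.70 and 2.16 under the 3 scalings in that order. Derl1 had 9.87, 9.32 and 9.49 in AF and 11.83, 11.62 and 12.05 in NP, a change of 3.01, 2.27 and 1.75. The tissues did not overlap for either gene. Edem1 was lower in NP of TonEBP +/- under all 3 (-2.33, -3.02 and -3.10), with 10.76, 10.41 and 12.33 in AF against 8.21, 7.93 and 8.28 in NP. In WT the deposited AF and NP signals of Edem1 did not overlap either (9.47 to 10.13 and 8.19 to 8.52), and its change was called lower as deposited (-1.36) and after quantile normalization (-1.52) but not with medians subtracted (-0.62, limma adjusted p = 0.179). Herpud1 was called higher in NP with medians subtracted in both genotypes (1.71 in WT and 1.61 in TonEBP +/-) and under neither of the other scalings, and so was Syvn1 in WT (0.84).

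Of the 5 enzymes of disulfide formation 2 were higher in NP of WT under all 3 scalings and 0 lower, and in TonEBP +/- 1 was higher and 1 lower. Of the 7 chaperones and co-factors 0 were higher and 1 lower in WT, and 0 and 2 in TonEBP +/-. P4hb had 12.29, 12.44 and 12.58 in AF and 14.15, 14.05 and 14.06 in NP of WT, a change of 2.39, 1.65 and 0.79, and it was also called under all 3 scalings in TonEBP +/- (2.52, 1.83 and 1.07). Pdia6 was called under all 3 in WT (2.32, 1.58 and 1.09) and with medians subtracted alone in TonEBP +/- (1.42, 0.73 and 0.25). Sdf2l1 was lower in NP under all 3 in both genotypes, at least 2.72-fold in WT and 3.22-fold in TonEBP +/-, since it was at background on all 6 NP arrays and at 9.12 to 10.30 in AF. Hyou1 was lower in NP of TonEBP +/- under all 3 (-1.45, -2.14 and -2.57), with 11.57, 11.43 and 13.29 in AF and 9.82, 9.73 and 10.31 in NP. Hspa5 was 16.1 to 18.0 in AF and 15.3 to 15.9 in NP, and its change was not called with medians subtracted (-0.25 in WT and -0.79 in TonEBP +/-) but was called lower under both other scalings. Canx was called higher in both genotypes with medians subtracted (1.93 and 1.54) and as deposited (1.19 and 0.84), and not after quantile normalization (0.33 and 0.08). Ero1a followed the same pattern in WT (1.76, 1.02 and 0.38), and Ero1b was lower in NP of TonEBP +/- under all 3, at least 1.32-fold, being at background in NP.

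Of the UPR sensors and their factors, Xbp1 was called higher in NP of WT under all 3 scalings (2.24, 1.50 and 0.63), with 11.91 to 12.05 in AF and 13.26 to 13.76 in NP. In TonEBP +/-, where AF was higher, the change was 1.25, 0.56 and -0.19 and was called with medians subtracted alone. Eif2ak3 (1.89, 1.20 and 0.65) and Ddit3 (1.87, 1.18 and 0.97) were called higher in NP of TonEBP +/- under all 3. In WT both were called with medians subtracted and as deposited, and not after quantile normalization (1.88, 1.15 and 0.42 for Eif2ak3, and 1.71, 0.97 and 0.55 for Ddit3). Atf4 changed by 1.42, 0.68 and -0.19 in WT, and Atf6 by 1.18, 0.44 and -0.18, so the sign of both depended on the scaling. Ern1 was not called in WT under any of the 3 (0.22, -0.52 and -0.49), and in TonEBP +/- it was called lower in NP as deposited and after quantile normalization (-0.20, -0.89 and -0.80). Ppp1r15a was called higher in NP under all 3, but 1 of its 12 signals was above background, so no size is given. Trib3 was called lower in NP of WT under all 3, and Chac1 with medians subtracted and as deposited, but Trib3 was at background in NP with a bound near 1-fold and Chac1 in both tissues.

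Ssr3, a TRAP subunit, had 10.96, 11.21 and 11.55 in AF and 13.37, 12.83 and 13.15 in NP of WT, and was called higher under all 3 scalings (2.62, 1.88 and 1.07). In TonEBP +/- its change was 1.96, 1.27 and 0.57, the last of which was not called (limma adjusted p = 0.123). Sec61b was lower in NP of TonEBP +/- under all 3 (-0.67, -1.36 and -0.97), with 8.52, 8.54 and 9.07 in AF and 7.39, 7.28 and 7.39 in NP. Ssr1 was called higher in NP of WT with medians subtracted and as deposited and was below 0 after quantile normalization (1.51, 0.77 and -0.12), and Ssr2 was called lower there after quantile normalization alone (0.55, -0.19 and -0.96).

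**Figure D4:**
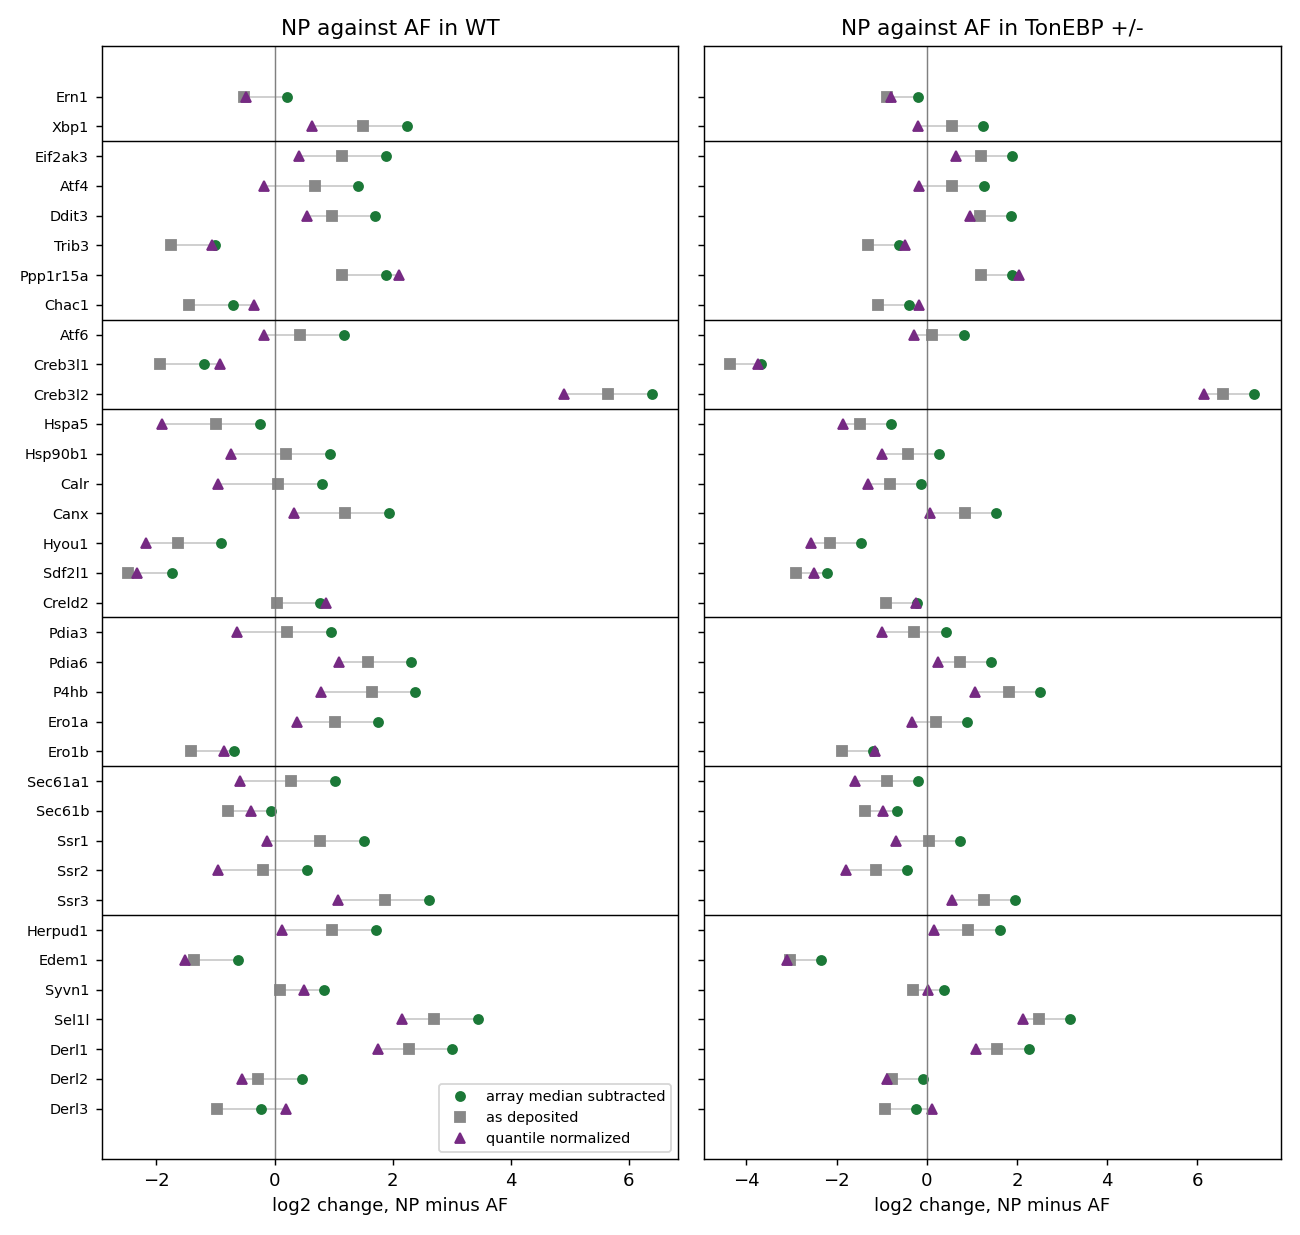
Fitted log2 change between NP and AF for each of the 35 genes, WT on the left and TonEBP +/- on the right, with 1 symbol for each scaling (array median subtracted, as deposited, quantile normalized) joined by a line, and horizontal lines between the roles. Genes at background in 1 or both tissues are drawn at their fitted values. Creb3l2, Sel1l and Derl1 lie to the right of 0 under all 3 scalings in both genotypes, while the lines of Atf4, Atf6 and Hsp90b1 cross 0 in WT.

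In the wider pathway lists, 108 of 141 genes were called higher and 10 lower in NP of WT, against 33.7% and 31.3% of all clusters, and 65 and 9 under all 3 scalings, against 19.2% and 22.1%. In TonEBP +/- they were 92 and 15 (30.9% and 25.3% of all clusters), and 52 and 14 under all 3 (17.9% and 18.2%). Of the 10091 clusters whose mean lay above background, 5895 were called higher and 1973 lower in WT, and 5269 and 1692 in TonEBP +/-. The lists were not set beside those clusters alone. The COPII coat and ER exit genes, which move cargo from the ER to the Golgi, were higher in WT for 19 of 19 and under all 3 scalings for 14. Sar1b (4.25, 3.51 and 2.81), the KDEL receptor gene Kdelr1 (4.11, 3.37 and 3.26) and Sec23a (4.04, 3.30 and 3.17) led them. Of 14 retrotranslocation and ERAD ubiquitination genes, 8 were higher in WT under all 3, led by Ubxn4 (3.14, 2.40 and 2.34). Nupr1, a stress-induced chromatin protein (5.88, 5.14 and 4.42), Fkbp14, an ER prolyl isomerase that acts on collagen (5.37, 4.63 and 4.21), and Mbtps1, the protease that cleaves ATF6 and its relatives in the Golgi (3.12, 2.38 and 1.96), were among the genes higher under all 3. The oligosaccharyl transferase subunit genes Dad1 (4.30, 3.56 and 2.78), Ost4 (3.31, 2.56 and 1.75) and Stt3b (3.18, 2.44 and 1.60) were too, as were the J-domain gene Dnajc10 (2.99, 2.25 and 1.51) and the signal recognition particle receptor gene Srprb (3.40, 2.66 and 2.32). Of 30 ATF4 targets and stress response genes 9 were higher and 6 lower under all 3. The part of the different cells of AF and NP samples in these changes was not tested.

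The 9 genes with an ERSE match were set beside the 20 measured genes with a promoter window and no match. Creb3l1, Sec61a1 and Ssr2, which rose in AF, had no window and are in neither set, as are 3 other measured genes. In AF, 1 of the 9 rose with TonEBP +/- (Calr) and 8 were positive, with a median of 0.73 log2, and of the 20, 2 rose, 1 fell and 16 were positive, with a median of 0.30. In NP the medians were 0.15 and 0.07, with 0 called in either set. Between tissues, with array medians subtracted, the medians were 0.80 and 1.61 in WT and -0.13 and 1.07 in TonEBP +/-. No test was made between the 2 sets.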

How the data were processed

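RNA of 12 samples was hybridised to Affymetrix Clariom S mouse arrays, and the values used are the deposited log2 signals, 1 table for all samples, made by the authors with Expression Console and RMA per the submitters' processing notes. Whether the 12 arrays were normalized together is not given in the sources used here. The highest value in the table is 19.93 and the highest of the genes described is 17.95. Control probe sets were left out (6640), and 22206 transcript clusters were tested, 19572 of which have a gene name in the platform annotation. Of a gene's clusters, the one with the highest mean over the 12 arrays was used.

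Group means (4 groups) were fitted with limma 3.58.1 (R 4.3.3, lmFit and eBayes without a trend), so all groups shared 1 estimate of the spread. Genotype changes and the interaction used the values as deposited, and tissue changes used values less each array's median. P-values were adjusted by Benjamini-Hochberg over all clusters, with 0.05 as the threshold, and intervals are 95% intervals of the fit. A change against a group with no array above background is given as a bound, from that group's mean background limit. The p-values test a change in group means against 1 spread pooled over AF and NP, although the spread differed between the tissues. With 3 arrays a group, the number of arrays limits the precision. The fit was also run on simulated data with independent noise and a spread set by tissue. These held no outlying array and no spread that differed between genotypes, so the run does not bear on either.

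Members and gene lists were chosen with earlier results of these data known. Named are all called genes of the set, the sensors and transcription factors, and the largest and smallest change of each role. In each comparison, up to 3 called genes a list of the wider pathway whose groups do not overlap are named too. Alternatives were other scalings, a trend, weights per tissue, the 6 arrays compared alone, clusters above background alone, the mean of a gene's clusters, and leaving out each array. Promoter windows and coordinates are from RefSeq on GRCm38.p6; 7 genes of the set had no window there.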

Additional observations from a re-analysis of the deposited data

Results flagged for a closer look

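The genotype change of Creb3l1 differed between the tissues by the interaction test: the fitted change in NP minus that in AF was -2.42 log2 (SE 0.397, limma adjusted p = 0.0148). All 3 AF arrays of TonEBP +/- were above background (8.91, 9.10 and 9.94) and the other 9 arrays were at background, so 3 of the 4 group means in this difference were at background and the fitted value is no measure of size. It was called in 10 of 12 fits that left out 1 array, and not without array 2 of AF of WT or array 2 of NP of WT (adjusted p up to 0.0575). The mean of 7 osteoblast markers was 11.0 to 11.7 on the same 3 arrays, 8.60 to 10.2 in AF of WT and at background for all 7 in NP. The part of those markers' cells in the result was not tested. Outlying values within groups of 3 arrays were not looked for.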

How the results depend on the processing

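No paired analysis was possible because the labels give no shared replicate or animal numbers. In AF, 1 gene of the set and 149 clusters were called with a weight per tissue and 0 and 3 with the 6 AF arrays alone; leaving out arrays gave 1 to 11 genes and 81 to 4029 clusters. The higher and lower clusters in AF were 612 and 735, and 713 and 563 with medians subtracted. In NP, 0 genes of the set were called by limma under every alternative, and clusters went from 25 to 13 (medians subtracted), 81 (weight per tissue), 0 (6 NP arrays) and 2 to 79 (arrays left out). The interaction was called for 0 to 3 genes and 22 to 1319 clusters with arrays left out, and for 0 genes among clusters above background, a filter that removes Creb3l1 itself. NP against AF gave 7868 (WT) and 6961 (TonEBP +/-) clusters among those above background, where fewer were tested. After quantile normalization these called NP-against-AF changes turned below 0: in WT Atf4 -0.19, Atf6 -0.18, Hsp90b1 -0.73, Calr -0.95, Pdia3 -0.63, Sec61a1 -0.59 and Ssr1 -0.12, and in TonEBP +/- Xbp1 -0.19, Atf4 -0.18, Atf6 -0.28, Ero1a -0.33 and Ssr1 -0.68; the cause was not tested. Wider pathway calls in AF, recomputed after seeing the data, were 11 (medians subtracted), 12 (quantile), 16 (above background), 0 (weight per tissue) and 0 (6 AF arrays).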
